A study of Rattus norvegicus with 6 samples.

Results

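The comparison described here is that of INS-1 cells given doxycycline (Dox) together with 4μ8c against untreated cells, which asks what part of the mRNA response to mutant proinsulin is seen while the endoribonuclease of IRE1 is inhibited. INS-1 cells derive from a rat insulinoma and stand in for pancreatic β-cells in culture. The cells were 1 clone with a Dox-inducible gene for a GFP fusion of insulin 2 that carries the Akita mutation C96Y, and untreated cells carry that gene too. The members are the 4 arrays, of 6 in all, whose titles name untreated cells (2 arrays) or cells given Dox with 4μ8c (2 arrays). The other two are arrays of cells given Dox alone, and they enter only as a reference. Treatment lasted 48 h, with Dox at 4 μg/ml and 4μ8c at 5 μM as labelled, and glucose was 11.1 mM for all arrays. Each of 2 independent experiments gave 1 array per group. Arrays of cells given 4μ8c alone are not analysed here, and what 4μ8c or Dox does apart from mutant proinsulin cannot be told apart here.

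Misfolded protein in the endoplasmic reticulum (ER) is sensed by PERK, ATF6 and IRE1. PERK phosphorylates eIF2α, which favours translation of ATF4, the main transcription factor of the integrated stress response (ISR), and ATF4 with its partners raises genes of amino acid supply and tRNA charging, and the factor CHOP. ATF6 is cleaved to a transcription factor that acts with NF-Y at ER stress response elements. IRE1 splices the mRNA of XBP1, whose product raises genes of protein entry, folding, degradation and transport in the secretory pathway, and 4μ8c blocks that splicing.

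The short promoter elements that these factors are known to use are shown first, as they are held by genes of the main groups described below. RefSeq promoters (GRCr8, 250 bases before to 50 bases after the start of a gene) were given for 10401 of the 12603 genes tested, for 127 of the 148 genes that were higher with Dox+4μ8c than in untreated cells and for 107 of the 142 that were lower. Each window holds the element in capitals with up to 15 bases on either side, on the strand of the gene. Where the element lies on the opposite strand the capitals show its reverse complement. The ER stress response element (ERSE) was searched as CCAAT and CCACG with 9 bases of any kind between them, and these 4 windows show it in chaperone genes and in Xbp1, all of which rose.
Hspa5 (chr3:38452958-38453006): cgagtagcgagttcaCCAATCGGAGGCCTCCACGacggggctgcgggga
Dnajc3 (chr15:102432519-102432567): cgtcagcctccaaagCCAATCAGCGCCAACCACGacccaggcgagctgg
Creld2 (chr7:121789224-121789272): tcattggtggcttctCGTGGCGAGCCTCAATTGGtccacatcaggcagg
Xbp1 (chr14:84604543-84604591): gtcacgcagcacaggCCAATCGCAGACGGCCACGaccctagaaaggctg
The related ERSE-II, searched as ATTGG and CCACG with any 1 base between them, is shown in 3 genes that rose.
Herpud1 (chr19:10614806-10614846): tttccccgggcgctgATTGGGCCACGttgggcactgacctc
Dnajb11 (chr11:91672785-91672825): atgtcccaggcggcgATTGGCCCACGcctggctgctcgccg
Ggct (chr4:85459608-85459648): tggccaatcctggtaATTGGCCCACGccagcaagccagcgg
The C/EBP-ATF element, at which ATF4 pairs with C/EBP factors, was searched as TGATGNAAT, and 2 risers that hold the same 9 letters are shown.
Iars1 (chr17:15193654-15193692): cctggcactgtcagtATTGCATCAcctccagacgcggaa
Nupr1 (chr1:190645934-190645972): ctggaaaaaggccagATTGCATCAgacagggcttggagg
The unfolded protein response element (UPRE), searched as TGACGTGG, is shown in 3 genes that did not pass the test against untreated cells and that were lower than with Dox alone.
Kdelr3 (chr7:112959516-112959553): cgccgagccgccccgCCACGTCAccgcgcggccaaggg
Slc30a5 (chr2:33709971-33710008): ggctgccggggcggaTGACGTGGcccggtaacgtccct
Dnajc10 (chr3:85639466-85639503): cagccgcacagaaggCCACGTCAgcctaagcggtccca

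Of the genes higher with Dox+4μ8c, 7 of the 127 with a promoter (5.51%) held an ERSE, against 17 of all 10401 (0.163%). An ERSE-II was found in 4 of the 127 (3.15%), against 11 of all (0.106%), and a C/EBP-ATF element in 5 (3.94%), against 53 of all (0.51%). None of these 3 elements was found in the 107 promoters of genes that were lower. At the shares over all genes so few promoters would hold few or none, so that no contrast is read from this. The UPRE was not more frequent among the genes that rose, with 1 of 127 (0.787%) against 89 of all (0.856%), and that gene was Hyou1, in which its letters overlap an ERSE-II. Among 167 promoters of genes lower than with Dox alone and not higher than untreated cells, a group added after the values were seen, the UPRE was held by 10 (5.99%). That group leaves out risers, and with them the 4 genes with an ERSE or ERSE-II that were lower than with Dox, namely Creld2, Dnajc3, Dnajb11 and Ggct, so that no share of those elements is read from it. Read from the elements, 28 tested genes held an ERSE or ERSE-II, and 11 of them (39.3%) were higher with Dox+4μ8c against untreated, beside 1.17% of all genes. The letters of the UPRE hold the core ACGTG, as does the E-box CACGTG, and both strands were searched for each of 7 elements. The core was held by 45.5% of the 167 promoters, 36.2% of those of risers and 24.8% of all. The E-box was held by 16.5% of the promoters of risers and 9.31% of all, and the antioxidant response element, TGAC and GCA with any 3 bases between them, by 1.57% and 2.76%. A match is a description of the letters, not a shown binding site, and a promoter without one says nothing about the factor.

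**Figure D1:**
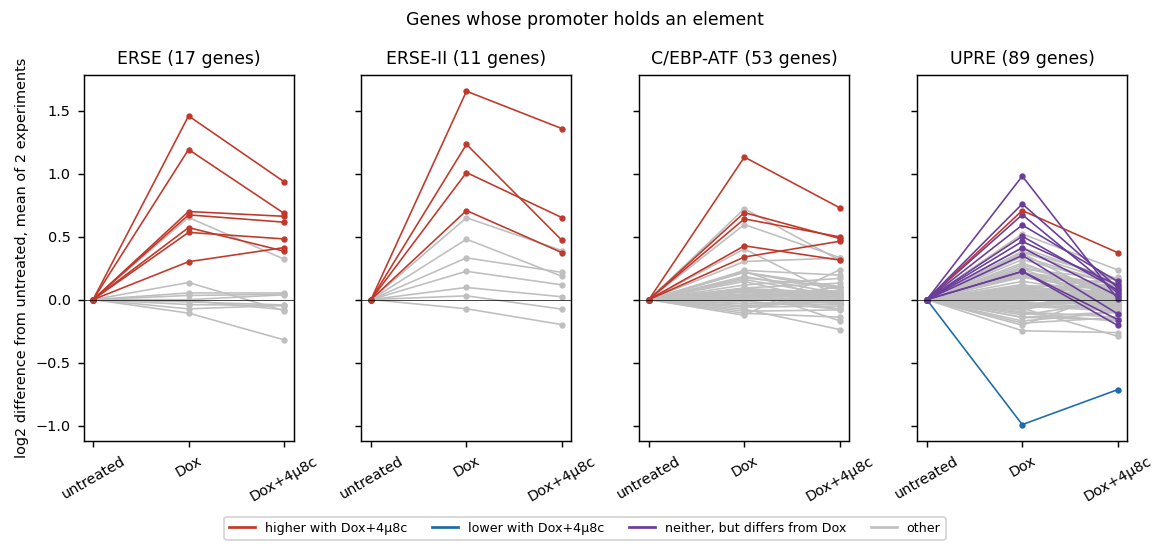
Log2 difference from untreated cells (mean of 2 experiments, y axis) with Dox and with Dox+4μ8c for each tested gene whose promoter holds 1 of 4 elements, with 17 genes for ERSE, 11 for ERSE-II, 53 for C/EBP-ATF and 89 for UPRE, each line 1 gene. Red lines are genes past the test as higher with Dox+4μ8c, blue as lower, and purple lines are genes past neither that differ from Dox alone: the 10 purple lines all lie in the UPRE panel and end between −0.20 and 0.14 with Dox+4μ8c. Genes past the test against untreated cells were left out of the purple lines by their definition. Dox and Dox+4μ8c are both set against the same untreated arrays.

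Across all genes, 148 of 12603 (1.17%) were higher and 142 (1.13%) lower with Dox+4μ8c than in untreated cells (limma, Benjamini-Hochberg adjusted p under 0.05). The genes that rose were led by Trib3, Serpinb9b, Chac1, Ifi27l2b, Fut1 and Slc7a11, and those that fell by Gcg, Slc18a1 and Stc1. Changes were mostly small. At least 1.5 fold, 38 genes (0.302%) were higher and 20 (0.159%) lower, and all of these passed the test, while 110 of the genes called higher and 122 of those called lower changed by under 1.5 fold. The median log2 difference of the genes called higher was 0.46, with 0.51 in experiment 1 and 0.42 in experiment 2, and that of the genes called lower was −0.38, with −0.37 and −0.38. Each called gene had the same sign in both experiments. On their own, experiments 1 and 2 both gave at least 1.5 fold for 24 of the 38 genes and 13 of the 20. Where a called gene had several probesets (43 genes higher, 26 lower), all of them had the same sign. The counts rest on few arrays. In a fit without the term for the experiment 0 genes were higher and 0 lower (825 and 1258 at an unadjusted p under 0.05). Without the untreated array of experiment 1 there were 12 higher and 7 lower, without that of experiment 2 48 and 15, without the Dox+4μ8c array of experiment 1 8 and 3 and without that of experiment 2 18 and 2, and without either Dox array, which serves only to estimate the spread, 318 and 394. Trib3, Serpinb9b, Chac1, Ifi27l2b, Sdf2l1, Atf5, Ddit3 and Slc18a1 passed with any 1 array left out.

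**Figure D2:**
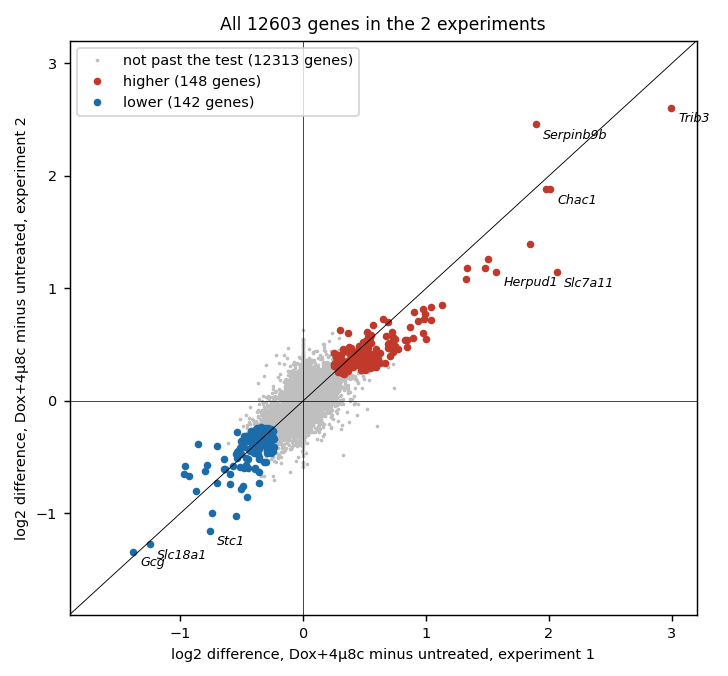
Log2 difference between Dox+4μ8c and untreated cells in experiment 1 (x axis) and experiment 2 (y axis) for all 12603 genes, with the 148 genes past the limma test as higher in red, the 142 as lower in blue and the line of equality in black. The called genes lie in the quadrants where both experiments share a sign, and the grey column at 0 on the x axis holds genes whose values were equal on both arrays in experiment 1.

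The values are log2 RMA values that were centred per probeset within an experiment, so that only differences between arrays of the same experiment can be read and no signal level is given. In experiment 1 the values of all 3 arrays were equal in 25.46% of probesets and those of 2 arrays in another 31.73%, against 0.632% with any equal pair in experiment 2. As a result, 3439 genes (27.29%) had exactly the same value in untreated and Dox+4μ8c cells in experiment 1, and 21 in experiment 2. None of the 290 called genes was among those of experiment 1. With the 2285 genes that were equal on all 3 arrays of experiment 1 left out, 171 genes were higher and 180 lower, among them all 148 and 142. The gap between the 5′ and the 3′ probesets of 4 spiked-in bacterial transcripts, a sign of how the labelling ran, changed from untreated to Dox+4μ8c by a median of −0.02 in experiment 1 and −0.28 in experiment 2, and its part in the results was not tested. The median difference over all genes was −0.00.

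Transcription factors and brakes of the ISR rose, with 9 of 16 measured higher (beside 1.17% of all genes), 0 lower and a median log2 difference of 0.45. Trib3, a pseudokinase that restrains ATF4 and CHOP, changed most of all genes. Its centred values were −2.94 in untreated, 0.01 in Dox and 0.05 in Dox+4μ8c cells in experiment 1, and −1.38, 1.44 and 1.23 in experiment 2. Both treated arrays lay far above the untreated array of their experiment and close to each other. The log2 difference between Dox+4μ8c and untreated was 2.80 ± 0.091 (SE, n = 2 experiments), a 6.96 fold rise (limma adjusted p = 0.000194), and the difference from Dox alone was −0.08 with a 95% interval of −0.30 to 0.14. Ddit3, which encodes CHOP, had −1.28 in untreated, 0.00 in Dox and 0.04 in Dox+4μ8c cells in experiment 1, and −0.54, 0.58 and 0.54 in experiment 2. It rose 2.30 fold, and its log2 difference from Dox alone was −0.00 (95% interval −0.16 to 0.16). Atf5 rose 2.39 fold, Atf3 1.84 fold, Atf4 itself 1.77 fold, the stress-induced chromatin protein gene Nupr1 1.66 fold and Cebpg, a partner of ATF4, 1.48 fold. Cebpb and Ddit4, an inhibitor of mTORC1, rose 1.40 and 1.34 fold. With Dox alone 10 of the 16 were higher against the same untreated arrays (as were 4.42% of all genes). The 1 member that passed as lower in Dox+4μ8c against Dox (as did 1.61% of all genes) was Eif2ak3, which encodes PERK. It was at a log2 difference of 0.08 with Dox+4μ8c (adjusted p = 0.67) and 0.75 with Dox, and the treated groups differed by −0.67 (adjusted p = 0.018). The other eIF2α kinase genes Eif2ak2 (−0.02) and Eif2ak4 (−0.01) did not pass against untreated cells.

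Of 14 measured effectors and secreted factors of the ISR, 5 rose (beside 1.17% of all genes) and 0 fell, with a median of 0.21. Chac1, which encodes an enzyme that degrades glutathione, had centred values of −2.01 in untreated, 0.23 in Dox and 0.00 in Dox+4μ8c cells in experiment 1, and −1.19, 1.04 and 0.69 in experiment 2. In both experiments the Dox+4μ8c array lay much nearer to Dox than to untreated. The rise was 3.85 fold (log2 1.94 ± 0.054, adjusted p = 0.00011), and the log2 difference from Dox was −0.29 (95% interval −0.42 to −0.16, adjusted p = 0.067). Xpot, the exporter of tRNA from the nucleus, rose 1.81 fold, the glycogen-binding protein gene Stbd1 1.55 fold and Inhbe, an activin subunit, 1.32 fold. Fgf21, a secreted ISR hormone, did not pass the test (log2 0.33, adjusted p = 0.13), and Gdf15, another, was at −0.02 (adjusted p = 0.89). Gdf15 was at 0.46 with Dox alone and passed as lower with the inhibitor added (log2 difference −0.48, adjusted p = 0.024).

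Genes of amino acid supply rose in 3 groups, whose counts stand beside 1.17% of all genes called higher. Of 21 measured enzymes of amino acid synthesis and one-carbon metabolism 9 were higher and 0 lower (median 0.25), of 18 amino acid transporters 7 and 0 (median 0.25), and of 19 cytosolic aminoacyl-tRNA synthetases, which charge tRNAs, 12 and 0 (median 0.41). All 19 synthetases were above 0 in experiment 1 and 16 of them in experiment 2. Psat1, of serine synthesis, had −1.48 in untreated, 0.06 in Dox and 0.00 in Dox+4μ8c cells in experiment 1, and −0.64, 0.64 and 0.54 in experiment 2. It rose 2.51 fold (log2 1.33 ± 0.079, adjusted p = 0.00281), and its log2 difference from Dox was −0.08 (95% interval −0.27 to 0.11). The mitochondrial one-carbon enzymes Mthfd2 and Shmt2 rose 1.80 and 1.56 fold, and Psph, which makes the last step to serine, 1.71 fold. Phgdh, which makes the first step, was at a log2 difference of −0.04 (adjusted p = 0.79).

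Slc7a11, the cystine importer, showed the widest spread of the large rises. Its centred values were −2.06 in untreated, 0.60 in Dox and 0.00 in Dox+4μ8c cells in experiment 1, and −0.74, 1.40 and 0.41 in experiment 2. It rose 3.04 fold (log2 1.60 ± 0.19, limma adjusted p = 0.0182), and its log2 difference from Dox of −0.80 (95% interval −1.26 to −0.33) did not pass the test (limma adjusted p = 0.14). The neutral amino acid carrier Slc1a4 rose 1.99 fold, the cationic carrier Slc7a1 1.70 fold and Slc3a2, the heavy chain that Slc7a11 and Slc7a5 pair with, 1.44 fold. Among the synthetases, Eprs1 rose 1.72 fold, Nars1 1.62 fold, Sars1 1.51 fold and Tars1 1.40 fold, while Kars1 was at a log2 difference of −0.09 (adjusted p = 0.64).

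The ER chaperones split. Of 24 measured, 10 were higher (beside 1.17% of all genes) and 0 lower with Dox+4μ8c (median 0.23). With Dox alone 18 were higher (median 0.56), beside 4.42% of all genes. The test placed 9 as lower with Dox+4μ8c than with Dox, beside 1.61% of all genes. Hspa5, which encodes the main ER chaperone BiP, had −0.84 in untreated, 0.00 in Dox and 0.00 in Dox+4μ8c cells in experiment 1, and −0.31, 0.25 and 0.17 in experiment 2. It rose 1.58 fold (log2 0.66 ± 0.09, adjusted p = 0.0251), and its log2 difference from Dox was −0.04 (95% interval −0.25 to 0.18). Its relative Hsp90b1, which encodes GRP94, rose 1.53 fold and differed from Dox by −0.06 (95% interval −0.25 to 0.14). Manf, a secreted ER protein, rose 1.84 fold, and the lectins Canx and Calr 1.40 and 1.31 fold.

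Other members of the list rose less than with Dox alone by the test of that difference. Sdf2l1, whose product works with that of Dnajb11, had −1.50 in untreated, 0.39 in Dox and 0.00 in Dox+4μ8c cells in experiment 1, and −0.63, 1.20 and 0.63 in experiment 2. Its 2.60 fold rise (log2 1.38 ± 0.068, adjusted p = 0.00132) was 0.48 below Dox on the log2 scale (log2 difference −0.48, 95% interval −0.65 to −0.32, adjusted p = 0.03). The co-chaperone genes Dnajc3 and Dnajb11 rose 1.61 and 1.57 fold, with log2 differences from Dox of −0.51 (adjusted p = 0.032) and −0.36 (adjusted p = 0.043). Creld2 rose 1.91 fold and differed from Dox by −0.52 (adjusted p = 0.021). Dnajb9, another co-chaperone of BiP, had −0.42 in untreated, 0.94 in Dox and 0.00 in Dox+4μ8c cells in experiment 1, and 0.01, 1.15 and −0.01 in experiment 2. It did not pass the test against untreated (log2 0.20, adjusted p = 0.42), with the sign differing between the experiments, and was lower than with Dox by a log2 difference of −1.05 (95% interval −1.29 to −0.81, adjusted p = 0.013).

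Fewer genes of disulfide formation and of ER-associated degradation passed, and their counts stand beside 1.17% of all genes called higher. Of 25 measured disulfide isomerases, oxidases and prolyl isomerases 3 were higher, namely Pdia4 (1.85 fold), Pdia3 (1.39 fold) and Pdia6 (1.36 fold), and 0 lower, with a median of 0.11. Of 27 genes of ER-associated degradation 3 were higher and 0 lower, with a median of −0.01. Herpud1, which encodes Herp, had −1.57 in untreated, 0.24 in Dox and 0.00 in Dox+4μ8c cells in experiment 1, and −0.57, 0.92 and 0.57 in experiment 2. It rose 2.56 fold (log2 1.36 ± 0.099, adjusted p = 0.00568) and differed from Dox by −0.30 (95% interval −0.54 to −0.06, adjusted p = 0.3). Sel1l, the partner of the ubiquitin ligase HRD1, rose 1.61 fold and Selenos 1.53 fold. Edem1, a lectin that directs glycoproteins to degradation, was at a log2 difference of −0.15 against untreated (adjusted p = 0.29) and of −0.59 against Dox (adjusted p = 0.013).

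Lists further along the secretory pathway held few or no called genes. Of 33 genes of the translocon, signal peptidase and oligosaccharyltransferase 0 passed in either direction (median 0.03), whereas 24 were higher with Dox alone (median 0.39) and 16 passed as lower in Dox+4μ8c against Dox. Of 41 genes of COPII, COPI and the ER-Golgi cargo receptors 0 passed (median −0.00), 18 were higher with Dox alone and 12 passed as lower in Dox+4μ8c against Dox. These shares of called genes, 16 of 33 and 12 of 41, stand beside 1.61% of all genes called lower with Dox+4μ8c than with Dox. The 24 and 18 genes higher with Dox alone stand beside 4.42% of all genes. Among 28 genes listed for N-glycan precursors and sugar nucleotides 2 rose (beside 1.17% of all genes). They were Piga, of GPI anchor synthesis (1.40 fold), and Slc35b1, a nucleotide carrier of the ER membrane (1.29 fold). Outside the list Pigy, also of GPI anchor synthesis, passed as higher (log2 difference 0.46). The 7 measured transcripts taken as targets of IRE1-dependent mRNA decay gave 0 calls in either direction against untreated, and their log2 differences lay between −0.11 and 0.13.

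**Figure D3:**
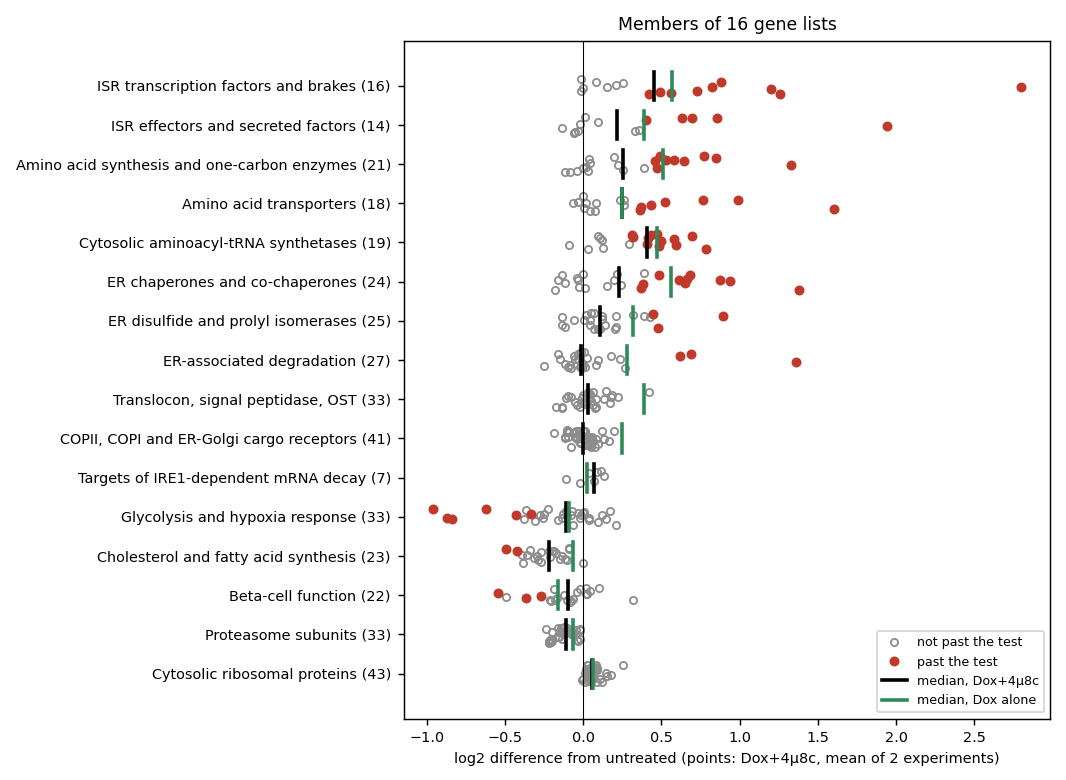
Log2 difference between Dox+4μ8c and untreated cells (mean of 2 experiments, x axis) for each measured member of 16 gene lists (rows, number of members in parentheses), with members past the limma test filled in red. Black bars give the median of the list with Dox+4μ8c and green bars that with Dox alone against the same untreated arrays: both bars lie to the right of 0 in the ISR, amino acid and synthetase rows, whereas in the translocon and COPII rows the black bar lies near 0 and the green bar at 0.39 and 0.25.

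The list counts depend on single arrays in the same way as the counts over all genes. With 1 array left out, called members ranged from 3 to 10 for ISR factors, 0 to 12 for the synthetases, 1 to 13 for ER chaperones and 0 to 10 for amino acid synthesis. Members called lower ranged from 0 to 12 for glycolysis and hypoxia and from 0 to 13 for cholesterol and fatty acid synthesis. The sign of the medians was the same in both experiments for each of these 6 lists, for example 0.49 and 0.29 for the synthetases.

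Several of the largest rises belong to none of these lists. Serpinb9b, a serpin of the granzyme inhibitor family, had centred values of −1.80 in untreated, 0.00 in Dox and 0.09 in Dox+4μ8c cells in experiment 1, and −1.52, 0.65 and 0.93 in experiment 2. It rose 4.52 fold (log2 2.18 ± 0.12, adjusted p = 0.00229), and the Dox+4μ8c array was the highest of its experiment both times. Ifi27l2b, of an interferon-induced family, rose 3.80 fold, with −1.97, 0.00 and 0.00 in untreated, Dox and Dox+4μ8c cells of experiment 1 and −0.94, 1.08 and 0.94 in experiment 2. It was the only riser among 24 measured genes in the list of interferon response and antigen presentation, where Cxcl10 fell 1.31 fold. Outside that list, Ifi44l rose (log2 difference 0.32) and Cxcl11 fell (−0.31). Fut1, a fucosyltransferase, rose 3.08 fold, with 1.85 and 1.40 as the log2 differences of the 2 experiments. Myc rose 1.58 fold, with log2 differences of 0.72 and 0.61. Hrk, a BH3-only promoter of apoptosis, rose 1.46 fold as the only 1 of 18 listed apoptosis regulators to pass (beside 1.17% of all genes called higher). That list is not complete, and outside it Tnfrsf21 (log2 difference 0.48) and Unc5b (0.46) passed as higher and Pycard (−0.36) as lower. Hspa9, a mitochondrial chaperone, rose 1.36 fold and Tac1, the precursor of substance P, 1.35 fold. Xbp1 rose 1.33 fold (log2 0.41 ± 0.063, adjusted p = 0.0331), with 0.52 and 0.31 in the 2 experiments, and its log2 difference from Dox was 0.11 (95% interval −0.04 to 0.26). The probeset does not tell spliced from unspliced Xbp1 mRNA.

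**Figure D4:**
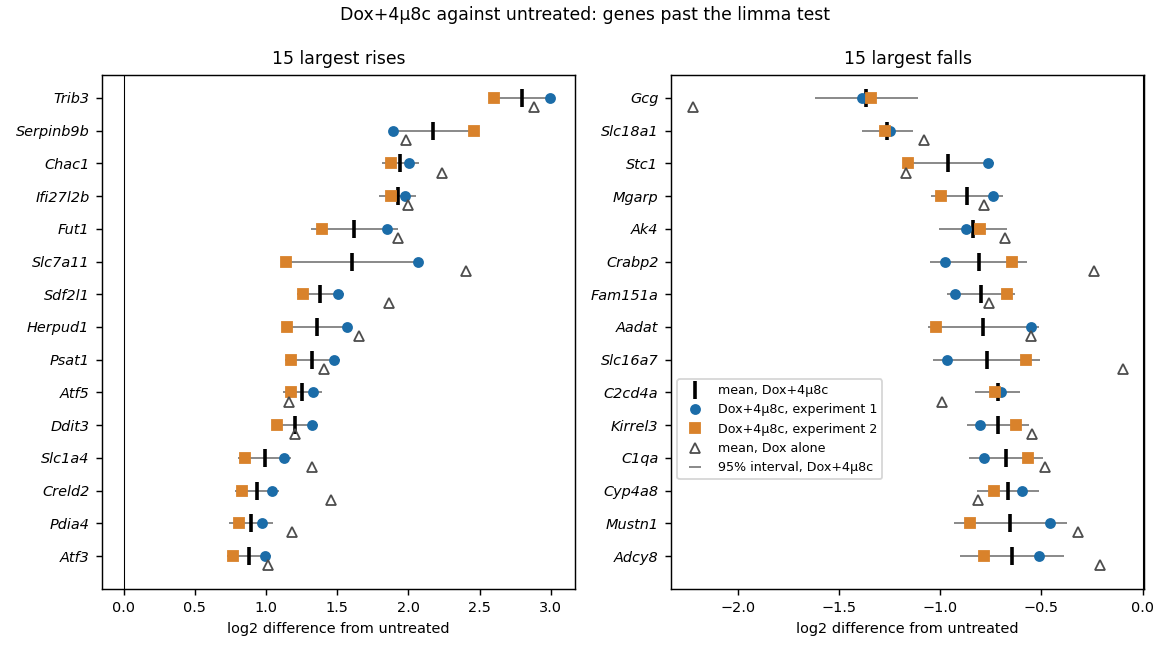
The 15 largest rises (left) and 15 largest falls (right) of Dox+4μ8c against untreated cells among genes past the limma test, as log2 difference (x axis), with circles for experiment 1, squares for experiment 2, a black bar for the mean and a grey line for its 95% interval. Open triangles give the mean with Dox alone against the same untreated arrays. Trib3 leads the rises at 2.80 and Gcg the falls at −1.36, and for Gcg the triangle lies further from 0, at −2.22.

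Of the 142 genes that fell, 18 belonged to any of 35 functional lists, beside 70 of the 148 that rose and 897 of all 12603. Gcg, which encodes the precursor of glucagon, had centred values of 1.39 in untreated, −0.65 in Dox and 0.00 in Dox+4μ8c cells in experiment 1, and 0.67, −1.74 and −0.67 in experiment 2. The Dox+4μ8c array lay between untreated and Dox in both experiments. It fell 2.57 fold (log2 −1.36 ± 0.10, adjusted p = 0.00609) and was higher than with Dox alone by a log2 difference of 0.86 (95% interval 0.61 to 1.11, adjusted p = 0.021). In a bulk measurement, fewer cells that make a transcript and less of it per cell cannot be told apart. Slc18a1, the vesicular monoamine transporter VMAT1, had 1.13 in untreated, 0.00 in Dox and −0.12 in Dox+4μ8c cells in experiment 1, and 0.69, −0.34 and −0.59 in experiment 2. It fell 2.40 fold (log2 −1.26 ± 0.052, adjusted p = 0.000672), with a log2 difference from Dox of −0.18 (95% interval −0.31 to −0.05, adjusted p = 0.23). Gch1, which makes the cofactor of monoamine synthesis, fell 1.35 fold, and the other 8 of 10 measured genes of monoamine handling did not pass.

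Genes of glycolysis and the hypoxia response gave the most falls of any list, with 6 of 33 lower (beside 1.13% of all genes), 0 higher and a median of −0.11. Of hypoxia-response genes outside the list, Hilpda (log2 difference 0.36) and Ddit4 (0.42) were higher and Cited2 (−0.39) was lower. With Dox alone 8 of the 33 were lower against the same untreated arrays (as were 2.01% of all genes). Stc1, a secreted glycoprotein of calcium and phosphate handling, had 0.76 in untreated, −0.27 in Dox and 0.00 in Dox+4μ8c cells in experiment 1, and 0.64, −0.67 and −0.52 in experiment 2, and fell 1.95 fold (adjusted p = 0.00888). The mitochondrial protein gene Mgarp fell 1.83 fold, the mitochondrial adenylate kinase gene Ak4 1.79 fold and Aldoc, aldolase C, 1.54 fold. Tpi1, triose phosphate isomerase, fell 1.34 fold and the collagen prolyl hydroxylase gene P4ha1 1.26 fold. Ldha (0.12), Vegfa (0.09) and Pgk1 (−0.11) of the same list gave log2 differences that did not pass the test.

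All 23 measured genes in the list of cholesterol and fatty acid synthesis had a log2 difference below 0, with a median of −0.22. Of these, only Idi1 (1.41 fold lower) and Ebp (1.34 fold lower), both of sterol synthesis, passed the test. Outside the list, such genes also passed as lower, among them Acss2 (log2 difference −0.52), Fads2 (−0.50) and Tm7sf2 (−0.49). The medians of that list were −0.17 in experiment 1 and −0.33 in experiment 2. All 33 proteasome subunits also lay below 0 (median −0.11) and 31 of 33 genes of DNA replication and mitosis did in each experiment (median −0.17), with 0 called in either list, and 0 of 43 cytosolic ribosomal protein genes passed (median 0.06). Shifts of this size in a whole list stand beside a median of −0.00 over all genes. The list of DNA replication and mitosis is not complete. Among such genes outside it, Pole (log2 difference −0.38), Kif2c (−0.32), Orc1 (−0.30) and Pola1 (−0.30) passed as lower and Orc2 (0.27) as higher. Further genes of chromatin assembly and cell division passed as lower, such as Asf1b (−0.495), Spc24 (−0.39), Ccnf (−0.36), Kif14 (−0.29), Pttg1 (−0.29), Esco2 (−0.28) and Cenpw (−0.28). As a set these genes were not tested.

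Some β-cell genes fell by small amounts. Of 22 measured genes of β-cell function and prohormone processing 3 fell (beside 1.13% of all genes) and 0 rose, with a median of −0.10. With Dox alone 6 of the 22 were lower against the same untreated arrays (as were 2.01% of all genes). In experiments 1 and 2, 16 and 18 of the 22 lay below 0. The 3 with Dox+4μ8c were Cltrn (1.46 fold), the prohormone convertase gene Pcsk2 (1.29 fold) and Kcnj11, the pore of the ATP-sensitive potassium channel (1.21 fold). Among 14 β-cell transcription factors Nkx2-2 fell 1.23 fold and the others, Pdx1 (0.06) and Neurod1 (−0.02) among them, did not pass. Ins1 had values of 0.02 in untreated, −0.02 in Dox and 0.00 in Dox+4μ8c cells in experiment 1 and 0.01, −0.02 and −0.01 in experiment 2, a log2 difference of −0.02 (95% interval −0.13 to 0.09). Ins2 was at −0.04 with Dox+4μ8c (95% interval −0.16 to 0.08) and −0.13 with Dox, neither past the test, and whether its probeset measures the inducible gene was not tested. Txnip, a binding partner of thioredoxin that high glucose raises, was at 0.19 with Dox+4μ8c (adjusted p = 0.11) and differed from Dox by −0.08 (95% interval −0.19 to 0.03). By quantitative PCR the paper found it induced by mutant proinsulin and reduced by the inhibitor. The centring leaves no signal level with which to check the cells against β-cell markers. Of 9 such markers 0 passed in either direction (log2 differences −0.23 to 0.28). Of the markers of other cells the cultures could hold, 5 measured for α, δ and PP cells gave Gcg alone as lower, and 0 of 4 acinar, 2 duct, 3 fibroblast, 2 endothelial and 5 immune markers passed.

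Other large falls were spread over unrelated functions. Crabp2, a carrier of retinoic acid, had 0.45 in untreated, 0.00 in Dox and −0.53 in Dox+4μ8c cells in experiment 1, and 0.34, 0.31 and −0.31 in experiment 2. It fell 1.75 fold, and its log2 difference from Dox of −0.57 narrowly missed the adjusted test (95% interval −0.81 to −0.33, adjusted p = 0.054). Fam151a fell 1.74 fold, the aminoadipate aminotransferase gene Aadat 1.73 fold, C2cd4a 1.64 fold and the adhesion molecule gene Kirrel3 1.64 fold. The complement subunit gene C1qa fell 1.60 fold, the fatty acid hydroxylase gene Cyp4a8 1.59 fold, Mustn1 1.57 fold and the adenylyl cyclase gene Adcy8 1.56 fold. Nqo1, a quinone reductase, fell 1.30 fold while Slc7a11 and Ggct of the same antioxidant and glutathione list rose, and 19 of its 22 members did not pass.

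Set beside Dox alone, the 148 genes higher with Dox+4μ8c had a median log2 difference of 0.46 with Dox+4μ8c and 0.54 with Dox, and the 142 lower genes −0.38 and −0.26, all against the same untreated arrays. Both sets were picked by their Dox+4μ8c values, which by itself moves their Dox+4μ8c medians away from 0, so that no contrast is read from these medians. The difference between the treated groups was read from the test of Dox+4μ8c against Dox. Of the called genes, 9 risers and 18 fallers were lower than with Dox (as were 1.61% of all genes), and 2 risers and 4 fallers were higher (as were 0.175%). The same Dox+4μ8c arrays enter both tests, which favours fallers below Dox and risers above Dox. No excess over the shares of all genes is therefore read from these counts. For most called genes the direct test thus did not place Dox+4μ8c on either side of Dox, which does not show that they were alike.

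Among the 9 risers that stayed below Dox, Ggct, an enzyme of glutathione breakdown, had −0.45 in untreated, 0.67 in Dox and 0.00 in Dox+4μ8c cells in experiment 1, and −0.25, 1.10 and 0.25 in experiment 2. It rose 1.39 fold and was lower than with Dox by a log2 difference of −0.76 (adjusted p = 0.013). Piga, of the first step of the GPI anchor, rose 1.40 fold and differed by −0.53 (adjusted p = 0.024). The 2 risers above Dox were Ap1s2, an adaptor subunit of clathrin coats, and Lamb1, a laminin chain. Lamb1 had −0.10 in untreated, 0.00 in Dox and 0.26 in Dox+4μ8c cells in experiment 1, and −0.15, −0.14 and 0.28 in experiment 2, so that the Dox+4μ8c array was the highest of both experiments. It rose 1.32 fold and was above Dox by a log2 difference of 0.34 (adjusted p = 0.042).

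Serpina10, an inhibitor of coagulation proteases, moved in opposite directions in the 2 treated groups. Its values were 0.00 in untreated, 0.56 in Dox and −0.38 in Dox+4μ8c cells in experiment 1, and 0.17, 0.62 and −0.17 in experiment 2. Dox+4μ8c gave the lowest and Dox the highest value both times. With Dox it rose by 0.51 on the log2 scale (adjusted p = 0.0052), with Dox+4μ8c it fell by 0.35 (adjusted p = 0.0328), and the log2 difference between the treated groups was −0.86 (95% interval −0.99 to −0.73, adjusted p = 0.01). Fgg, the fibrinogen γ chain, fell 1.47 fold with Dox+4μ8c and was at a log2 difference of 0.20 with Dox, which did not pass, and the treated groups differed by −0.75 (adjusted p = 0.018). Slc16a7, a monocarboxylate transporter, fell 1.71 fold, with 0.33 in untreated, 0.00 in Dox and −0.63 in Dox+4μ8c cells in experiment 1 and 0.27, 0.40 and −0.31 in experiment 2. Its log2 difference from Dox was −0.67 (adjusted p = 0.044). Postn, a matrix protein gene, Serpini1, which encodes neuroserpin, and Cks1b, a regulator of cyclin-dependent kinases, fell 1.43, 1.26 and 1.22 fold and were below Dox by log2 differences of −0.45, −0.55 and −0.50. The 4 fallers above Dox were Gcg, C2cd4a, the neuropeptide Y receptor gene Npy1r and Wnt4. Npy1r had 0.65 in untreated, −0.36 in Dox and 0.00 in Dox+4μ8c cells in experiment 1, and 0.26, −0.66 and −0.26 in experiment 2, in between both times.

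**Figure D5:**
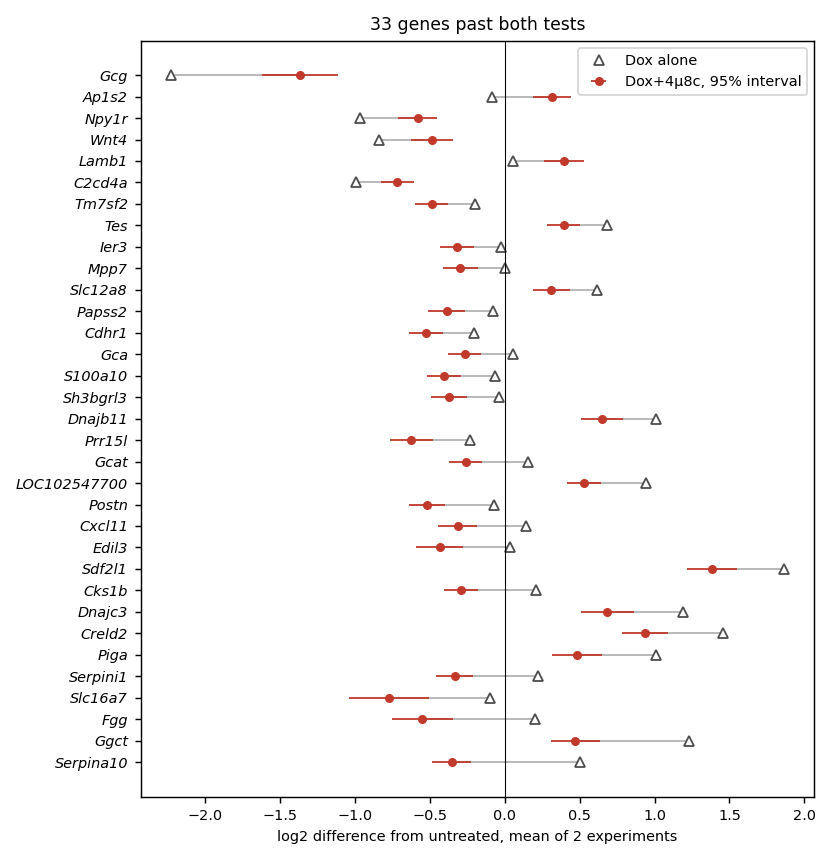
The 33 genes past both the test of Dox+4μ8c against untreated and that against Dox alone, ordered by the difference from Dox, with the log2 difference from untreated on the x axis (mean of 2 experiments), red points and 95% intervals for Dox+4μ8c and open triangles for Dox alone. Gcg, at the top, was 0.86 above Dox, and Serpina10, at the bottom, was 0.86 below Dox and on the other side of 0.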

How the data were processed

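Total RNA (200 ng per sample) was labelled with a 3′ IVT kit and hybridized to Affymetrix rat arrays. The log2 values were deposited by the authors after RMA, named without a version in the processing notes of the labels. Each probeset is centred within an experiment. Replicate numbers were taken as the experiments, as the study describes 2 independent experiments. Deviations of same-numbered arrays from their group means correlated at 0.03 to 0.10 over genes. The median of the 3 arrays was 0 for 100% of probesets in experiment 1 and 0.84% in experiment 2. The point of centring was therefore not the same in both, and that of experiment 2 was not settled. Single genes thus kept an offset between experiments after the centring, as Trib3 did in Dox+4μ8c cells (0.05 and 1.23). Of 25476 probesets, 17978 with 1 gene symbol were averaged to 12603 genes, with no filter.

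The test was limma's moderated test (version 3.58.1, R 4.3.3) with 3 groups and a term for the experiment over all 6 arrays (residual degrees of freedom 2, prior degrees of freedom 4.25, two-sided, Benjamini-Hochberg over all genes). Folds are 2 to the power of the mean log2 difference within experiments. The procedure was tested on simulated data. Promoters came from RefSeq. The gene lists, members and named genes were chosen with earlier results of these data known. Named were the 15 genes that rose most and the 15 that fell most among those called, up to 4 genes per list, the 6 largest differences from Dox each way among genes past both tests and the quantitative PCR genes. Ern1 had no match. Genes outside this rule were chosen after their values were seen.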

Additional observations from a re-analysis of the deposited data

Results flagged for a closer look

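Some genes past the test against untreated also differed from Dox alone by the limma test of Dox+4μ8c against Dox (adjusted p under 0.05). Over all genes, 27 of these were lower than with Dox and 6 higher. Those among the genes named in the text were the following. Lower than with Dox by log2 differences were Serpina10 (−0.86), Ggct (−0.76), Fgg (−0.75), Slc16a7 (−0.67), Serpini1 (−0.55), Piga (−0.53), Creld2 (−0.52), Dnajc3 (−0.51), Cks1b (−0.50), Sdf2l1 (−0.48), Postn (−0.45), Dnajb11 (−0.36), Slc12a8 (−0.30), Ier3 (−0.30) and Tes (−0.29). Higher than with Dox were Gcg (0.86), Ap1s2 (0.40), Npy1r (0.38), Wnt4 (0.35), Lamb1 (0.34) and C2cd4a (0.28).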

How the results depend on the processing

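The number of arrays limits the precision, and with 2 per group a call rests on the spread borrowed across genes. Without the replicate block, 0 genes were higher and 0 lower (825 and 1258 at an unadjusted p under 0.05, against 790 and 1153 with it), and the cause was not tested. With only the 4 arrays compared, 318 were higher and 394 lower, among them all 148 and 142, and with single probesets 57 and 33. With 1 array left out, the counts ranged from 8 to 318 higher and 2 to 394 lower, and the counts at 1.5 fold from 31 to 53 higher and 19 to 30 lower. Single probesets gave 31 at 1.5 fold lower in place of 20, and a 2 fold threshold 11 and 2. Counts stayed within 1.5 times with arrays centred on their median (131 and 112), the probeset median (141 and 133), genes of 1 probeset (111 and 127), a robust prior (139 and 124) and, added after seeing the data, without genes equal on all 3 arrays of experiment 1. Of the 114 named genes, the called ones kept their sign under each setting tried. Lost calls numbered 92, all that were called, without the replicate block, 6 with median centring, 4 with the probeset median, 2 with the robust prior and 45 to 81 without an untreated or Dox+4μ8c array. Genes that had not passed changed sign with 1 array left out, with ranges of −0.047 to 0.21 for Eif2ak3, −0.11 to 0.065 for Gdf15, −0.061 to 0.031 for Eif2ak2, −0.029 to 0.0070 for Eif2ak4, −0.093 to 0.016 for Phgdh, −0.23 to 0.044 for Kars1, −0.0037 to 0.19 for Vegfa, −0.036 to 0.16 for Pdx1, −0.087 to 0.044 for Neurod1 and −0.043 to 0.055 for Kdelr3.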

Other observations

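Of 7068 probesets with no gene symbol, 21 were at least 1.5 fold higher with Dox+4μ8c than untreated and 8 at least 1.5 fold lower, and 17 and 6 met that threshold in both experiments singly, with no test. The largest rise was that of probeset 1393018_at, at log2 differences of 3.13 in experiment 1 and 2.81 in experiment 2, above that of any named gene, and it was at 2.89 with Dox alone. The largest fall was that of 1386530_at, with −1.22 and −1.58, and it was at −1.42 with Dox.

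Among the genes with a UPRE that were lower than with Dox and not higher than untreated, Kdelr3, a retrieval receptor for ER proteins, was at a log2 difference of 0.01 against untreated and −0.97 against Dox (adjusted p = 0.01). Txndc11 was at 0.09 and −0.67, the zinc transporter gene Slc30a5 at 0.14 and −0.45, Ckap4 at −0.20 and −0.43, and Dnajc10, an ER disulfide reductase gene, at −0.16 and −0.38.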
